A study of Homo sapiens with 6 samples.

Results

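The 3 chains of fibrinogen, FGA, FGB and FGG, and the fibrinogen-like genes FGL1 and FGL2 were followed in NCI-H460 cells with reduced PRMT5. These 5 genes, of 58825 in the data, were chosen by name after their fold changes between the same libraries were known. Their values are therefore given as a description. How many pass each threshold is printed once beside the share of all genes, and no test of them is read. Fibrinogen is assembled in the endoplasmic reticulum from paired α, β and γ chains, secreted mainly by hepatocytes, and cut by thrombin to form fibrin clots. Its chains are acute-phase proteins, induced through IL-6 family cytokines, STAT3 and C/EBP factors. FGL1 and FGL2 carry the same kind of C-terminal domain but act on immune cells. FGL1 is a ligand of the T cell receptor LAG3, and FGL2 restrains T cells through an inhibitory Fc receptor and, as a membrane form, can cleave prothrombin.

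NCI-H460 is an established human line derived from a large cell lung carcinoma, which the labels call lung adenocarcinoma. Cells infected with lentivirus for a hairpin directed at GFP (NC-shRNA, 3 libraries) were compared with cells infected with lentivirus for a hairpin directed at PRMT5 (PRMT5-shRNA, 3 libraries). PRMT5 is an arginine methyltransferase that places symmetric dimethylation on histones and splicing proteins. The total estimated count per library ranged from 53531257 to 70518401. The paper calls the cells of both groups stable, and its methods state puromycin selection for the PRMT5 knockdown cells. There was 1 PRMT5 hairpin group, and what it did beyond lowering PRMT5 cannot be told apart. In bulk RNA, fewer cells that express a gene and less of its RNA per cell cannot be told apart either.

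PRMT5, the targeted gene, had FPKM values (fragments scaled for transcript length and sequencing depth) of 35.7, 32.5 and 33.5 in NC-shRNA replicates 1, 2 and 3. The PRMT5-shRNA replicates had 12.2, 12.04 and 10.2. Each was below every NC-shRNA library, as the labels state. By edgeR's quasi-likelihood test, with p values adjusted by Benjamini-Hochberg, PRMT5 fell with a log2 fold change of -1.62 and an adjusted p of 0.0063 (standard error 0.0943), to 32.6% of the NC-shRNA level.

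FGB, FGA and FGG lie side by side within 50.01 kb of chromosome 4 (GRCh38), with FGB on the plus strand and the others on the minus strand. FGB (ENSG00000171564) spans 154562956 to 154571086, FGA (ENSG00000171560) 154583126 to 154590766 and FGG (ENSG00000171557) 154604134 to 154612967. The gaps between them are 12.04 kb and 13.37 kb and hold no other protein-coding gene. FGL2 (ENSG00000127951) lies on the minus strand of chromosome 7 from 77193371 to 77199848, wholly inside CCDC146, which is read from the other strand.

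Because the chain genes are textbook targets of liver and IL-6 control, the bases before the start sites were read for the letters of such elements. Both strands of the 250 bases before each RefSeq start (GRCh38.p14) were searched for CTGGGAA (the core of an IL-6 response element), TTGCNNAA (C/EBP), TGATGCAA (a C/EBP-ATF composite), TTCNNNGAA (STAT) and CACGTG (E-box). Below, 5′ to 3′ on each gene's own strand, matches are in capitals, and each sequence stops at the first annotated exon. FGB (chr4:154562730-154562955, plus strand) and FGA (chr4:154590767-154590992, minus strand) are intergenic there. FGL2 (chr7:77199849-77200069, minus strand) is in an intron of CCDC146.
FGB: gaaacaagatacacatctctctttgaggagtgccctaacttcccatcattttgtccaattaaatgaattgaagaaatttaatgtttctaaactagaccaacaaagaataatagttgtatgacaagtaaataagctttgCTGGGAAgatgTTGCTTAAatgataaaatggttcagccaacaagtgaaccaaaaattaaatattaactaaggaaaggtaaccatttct
FGA: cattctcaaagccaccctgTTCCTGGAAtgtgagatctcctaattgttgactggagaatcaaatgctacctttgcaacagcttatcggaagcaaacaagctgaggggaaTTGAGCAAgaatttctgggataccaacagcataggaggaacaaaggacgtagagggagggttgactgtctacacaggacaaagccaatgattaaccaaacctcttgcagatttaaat
FGL2: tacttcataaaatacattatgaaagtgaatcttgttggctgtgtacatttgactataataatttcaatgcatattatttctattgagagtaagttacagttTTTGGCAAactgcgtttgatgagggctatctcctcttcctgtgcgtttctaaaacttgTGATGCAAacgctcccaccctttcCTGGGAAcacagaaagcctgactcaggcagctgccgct
FGB held CTGGGAA 112 to 106 bases before its start and a C/EBP match at 101 to 94. FGA held a C/EBP match 141 to 134 bases before its start and a STAT match at 231 to 223. In FGG, CTGGGAA was the only match, 161 to 155 bases before the start. This window lies in exons of longer FGG transcripts and is not shown. FGL2 held CTGGGAA at 67 to 61, the composite at 91 to 84 and a C/EBP match at 149 to 142. No matches overlapped each other, and the E-box letters were found in none of the 4 windows. Of 35116 promoter windows of this length, 9.15% held CTGGGAA, 9.05% the C/EBP letters, 6.57% the STAT letters, 6.34% the E-box and 0.772% the composite. A match describes letters and does not show a site in use.

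Fibrinogen chain transcripts were abundant in these lung cancer cells before any change in PRMT5. FGB, the β chain, had FPKM values of 67.3, 69.4 and 74.1 in NC-shRNA replicates 1, 2 and 3 and 71.0, 95.7 and 109 in the PRMT5-shRNA replicates. The groups overlapped, since PRMT5-shRNA replicate 1 lay below NC-shRNA replicate 3, while the other PRMT5-shRNA libraries lay above all controls. Its means were 70.2 ± 3.50 and 92.0 ± 19.4 (SD, n = 3 each), and its log2 fold change of 0.33 (standard error 0.145) came with the widest relative spread of the 3 chains among PRMT5-shRNA libraries and the narrowest among NC-shRNA libraries. By NC-shRNA level, FGB ranked 453, FGA 1413 and FGG 3306 of 29264 genes with an FPKM above 0.

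FGA, the α chain, whose N-terminal peptide thrombin releases first, had FPKM values of 23.1, 24.6 and 28.5 in NC-shRNA and 37.6, 37.9 and 38.0 in PRMT5-shRNA replicates 1, 2 and 3. The groups did not overlap, and the 3 PRMT5-shRNA values lay within a factor of 1.01 of each other. The means were 25.4 ± 2.76 and 37.8 ± 0.238 (SD, n = 3 each), and the log2 fold change was 0.52 (standard error 0.0730).

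FGG, the γ chain, which carries the main platelet integrin binding site of fibrinogen, had FPKM values of 10.1, 10.7 and 12.1 in NC-shRNA and 21.3, 20.4 and 21.3 in PRMT5-shRNA replicates 1, 2 and 3. Every PRMT5-shRNA library was far above the highest control. The means were 10.96 ± 1.02 and 21.0 ± 0.549 (SD, n = 3 each), with a standard error of 0.0717 around a log2 fold change of 0.88. On estimated counts, FGG had 2975, 3200 and 3157 against 4793, 5914 and 5024.

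FGL2 was measured at a far lower level, on 143, 177 and 132 estimated counts in NC-shRNA and 185, 289 and 253 in PRMT5-shRNA replicates 1, 2 and 3. Its FPKM values were 0.38, 0.46 and 0.39 against 0.64, 0.77 and 0.83, and the groups did not overlap. The log2 fold change was 0.81 (standard error 0.176). CCDC146, which overlaps all of FGL2 from the other strand, had 44, 79 and 76 counts in NC-shRNA and 107, 160 and 104 in PRMT5-shRNA. Its log2 fold change was 1.005 (adjusted p = 0.27 in edgeR's quasi-likelihood test), so the 2 genes were higher in the same libraries. The library kit marked strand, but whether the counting used it is not stated, so reads of FGL2 and CCDC146 may not have been told apart.

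FGL1 (ENSG00000104760), the LAG3 ligand, lies on the minus strand of chromosome 8 from 17864380 to 17910365. It had FPKM values of 0.42, 0.27 and 0.36 in NC-shRNA and 0.42, 0.34 and 0.42 in PRMT5-shRNA, on 75 to 117 estimated counts. The groups overlapped. Its log2 fold change was 0.11 (standard error 0.245), and -0.06 without NC-shRNA replicate 2. LAG3 itself, singled out here after its values were seen, had 6 to 19 counts in NC-shRNA and 6, 59 and 19 in PRMT5-shRNA.

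**Figure D1:**
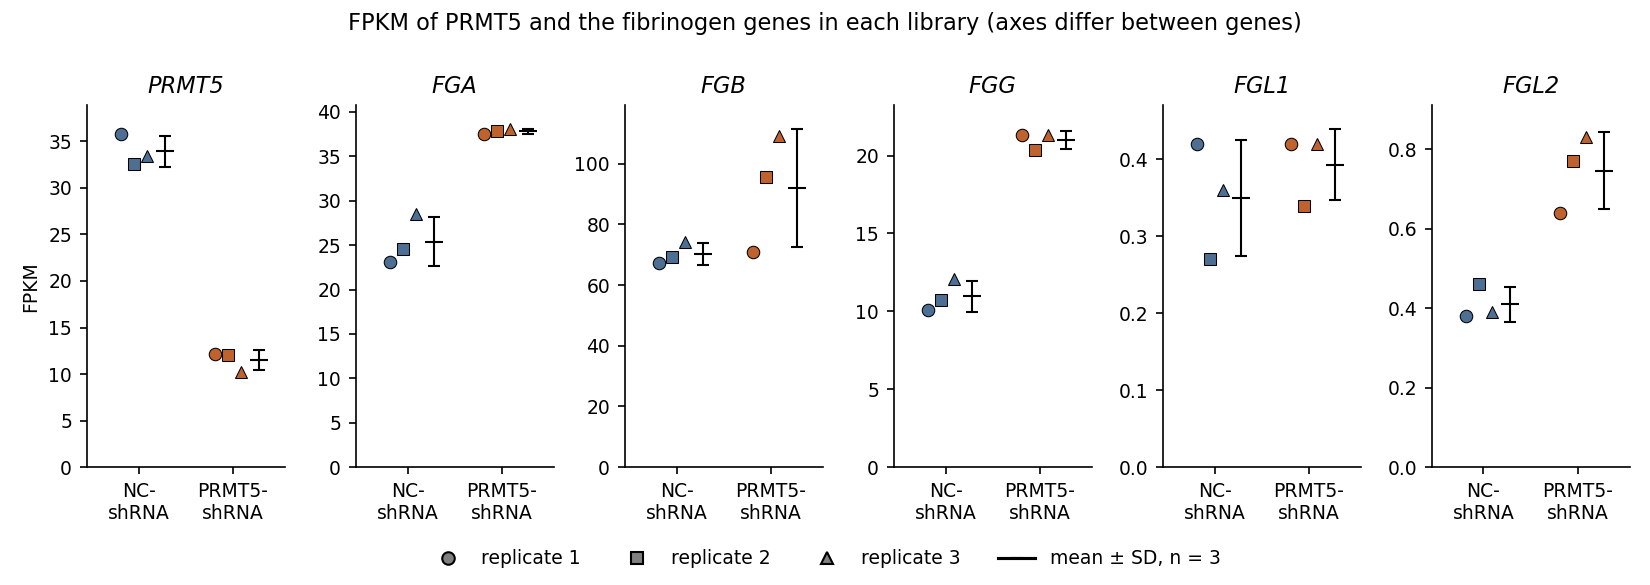
FPKM of PRMT5 and the 5 fibrinogen genes (vertical axes, starting at 0 and differing between genes) in each NC-shRNA (blue) and PRMT5-shRNA (orange) library, with a symbol for each replicate and the mean ± SD beside them. FGA and FGG form separate, tight groups, FGB and FGL1 overlap, and PRMT5 is lower in every PRMT5-shRNA library.

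All 5 genes passed the filter on low counts. By normalized counts (CPM, counts scaled to library size), which all such counts below use, higher in every PRMT5-shRNA library were 3 of the 5 (FGA, FGG and FGL2), where 11.03% of the 20295 tested genes were. At the looser thresholds (more than 1.5-fold with an unadjusted p below 0.05), the count was 2 of 5 (FGG and FGL2), against 2.53% of all tested genes. At an adjusted p under 0.05 it was 1 of 5 (FGG), against 0.0493%. Without any 1 library other than NC-shRNA replicate 3, this last count was 0, and FGG's log2 fold change then ran from 0.84 to 0.89. The count was 3 of 5 with DESeq2 and 0 with unfiltered limma on FPKM or with replicates as a block. The genes were chosen from this contrast, so nothing is read from these shares.

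In order of FPKM, NC-shRNA cells had FGB above FGA, FGA above FGG, and FGG well above FGL2 and FGL1. FGL2 (0.41 ± 0.0436) and FGL1 (0.35 ± 0.0755) did not differ beyond their spread (SD, n = 3 each). In PRMT5-shRNA cells the order was the same, and FGL2 (0.747 ± 0.0971) lay above FGL1 (0.393 ± 0.0462) in all 3 libraries.

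The balance among the chains was measured within each library, where scaling between libraries plays no part. FGG made up 10.02%, 10.3% and 10.5% of the summed chain FPKM in NC-shRNA and 16.4%, 13.2% and 12.6% in PRMT5-shRNA replicates 1, 2 and 3. The FGA to FGG ratio was 2.30, 2.29 and 2.36 against 1.76, 1.86 and 1.78, and the FGB to FGG ratio was 6.68, 6.46 and 6.14 against 3.33, 4.70 and 5.12. Both ratios were lower in every PRMT5-shRNA library. The FGB to FGA ratio was 2.91, 2.82 and 2.60 against 1.89, 2.53 and 2.87, and the groups overlapped. PRMT5-shRNA replicate 1 stood apart. Its FGB (71.0 FPKM) was within the NC-shRNA range while its FGA and FGG were above it, with an FGB share of 54.7% where the other 5 libraries had 62.2% to 67.0%. The summed FPKM of the 3 chains averaged 107 ± 7.24 with NC-shRNA and 151 ± 19.5 with PRMT5-shRNA (SD, n = 3 each).

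**Figure D2:**
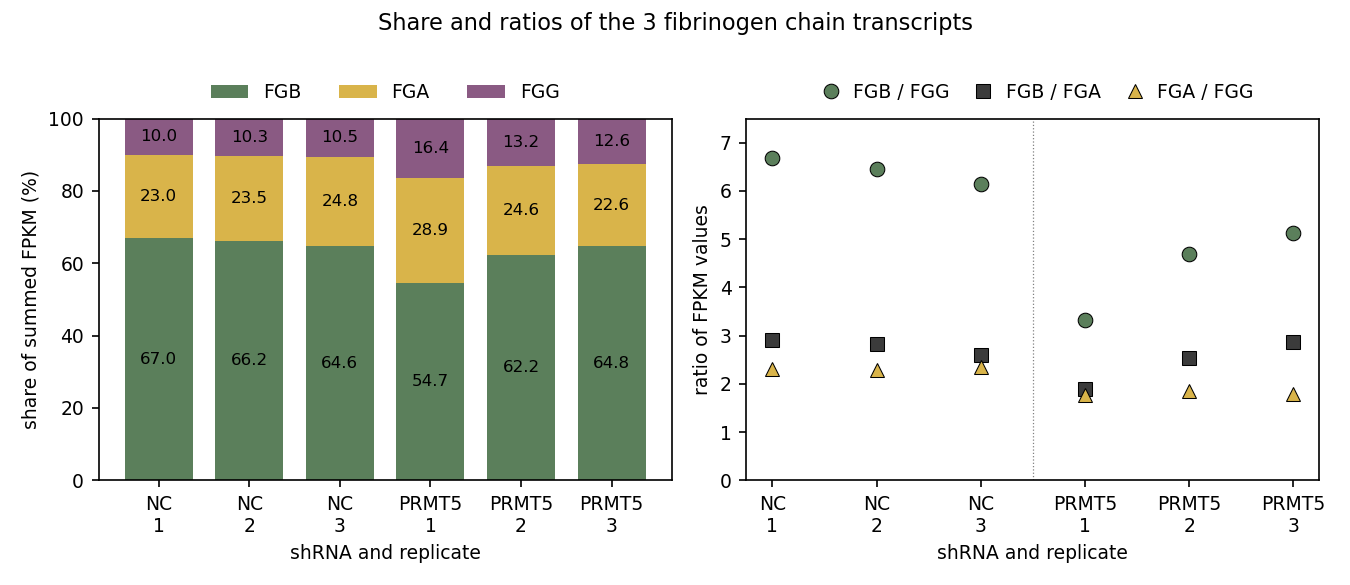
Left, share of FGB, FGA and FGG (%) in their summed FPKM in each library (bars by shRNA and replicate). Right, ratios of their FPKM values in the same libraries. The FGG share is 10.02% to 10.5% with NC-shRNA and 12.6% to 16.4% with PRMT5-shRNA, and PRMT5-shRNA replicate 1 has the lowest FGB share.

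Over the 6 libraries, the log2 CPM of FGA and FGG had a Pearson correlation of 0.99, and that of FGB with either was 0.66 and 0.64. FGL2 had 0.92 with FGG, and FGL1 had at most 0.28 with any of the others. Many genes were as alike. Among 20294 other tested genes, FGA ranked 28 in likeness to FGG, FGL2 447 and FGB 3401, and FGG ranked 18 for FGA. The points share their libraries and fall into the 2 groups, so these values describe the group difference as much as anything else. The tested genes most like FGG were PSAT1 (0.998), DDIT3 (0.998), REEP3 (0.997), OLFML2A (0.997) and AC025884 (0.995). Those most like FGA were ADAMTSL4 (0.999), MAML3 (0.998), ADORA2A-AS1 (0.997), NID2 (0.996) and PSAT1 (0.995). PSAT1, an enzyme of serine synthesis, was thus in both sets. For FGB they were KANSL1 (0.998), FAM217B (0.996), ELP2 (0.991), DOCK3 (0.990) and ABLIM3 (0.988). For FGL2 they were TMEM65 (0.992), LTBP1 (0.991), USP28 (0.990), RAB3C (0.990) and CBY1 (0.989). For FGL1 they were AC087392 (0.990), TAF1A-AS1 (0.989), SNHG5 (0.984), CYP4A22-AS1 (0.982) and AC093827 (0.981). Of these, AC087392, CYP4A22-AS1 and AC093827 were below 1 CPM on average, near the count filter.

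The genes around the fibrinogen cluster were read next. Of the 5 nearest protein-coding genes on each side, 6 of 10 were expressed highly enough to be tested (TLR2, DCHS2, PLRG1, LRAT, MAP9 and GUCY1A1). RNF175, SFRP2, RBM46 and NPY2R were not. Below an adjusted p of 0.05, 0 passed in edgeR's quasi-likelihood test, and 0 had an unadjusted p under 0.05. The nearest, PLRG1, a splicing factor gene 12.5 kb from FGB, had FPKM values of 10.7, 10.6 and 11.1 against 11.9, 12.3 and 12.5, a log2 fold change of 0.12 (adjusted p = 0.44). LRAT, 14.0 kb beyond FGG, had 0.25 (adjusted p = 0.84) on 36 to 91 counts. Around FGL2, 9 of 10 neighbours were tested, and 0 passed the same test at an adjusted p below 0.05. These were ZP3, DTX2, UPK3B, POMZP3, GSAP, PTPN12, RSBN1L, TMEM60 and PHTF2, and SPDYE16 was not tested. PTPN12, a tyrosine phosphatase gene 337 kb away, had FPKM values of 16.7, 20.8 and 20.6 in NC-shRNA and 32.0, 30.8 and 34.5 in PRMT5-shRNA libraries. Its log2 fold change of 0.69 had an adjusted p of 0.09, and it was the only neighbour past the looser thresholds (1 of 9, against 2.53% of all tested genes). With DESeq2 its adjusted p was 2.85e-07, and over all alternatives up to 0.284. CCDC146, which overlaps FGL2, also passed the looser thresholds.

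**Figure D3:**
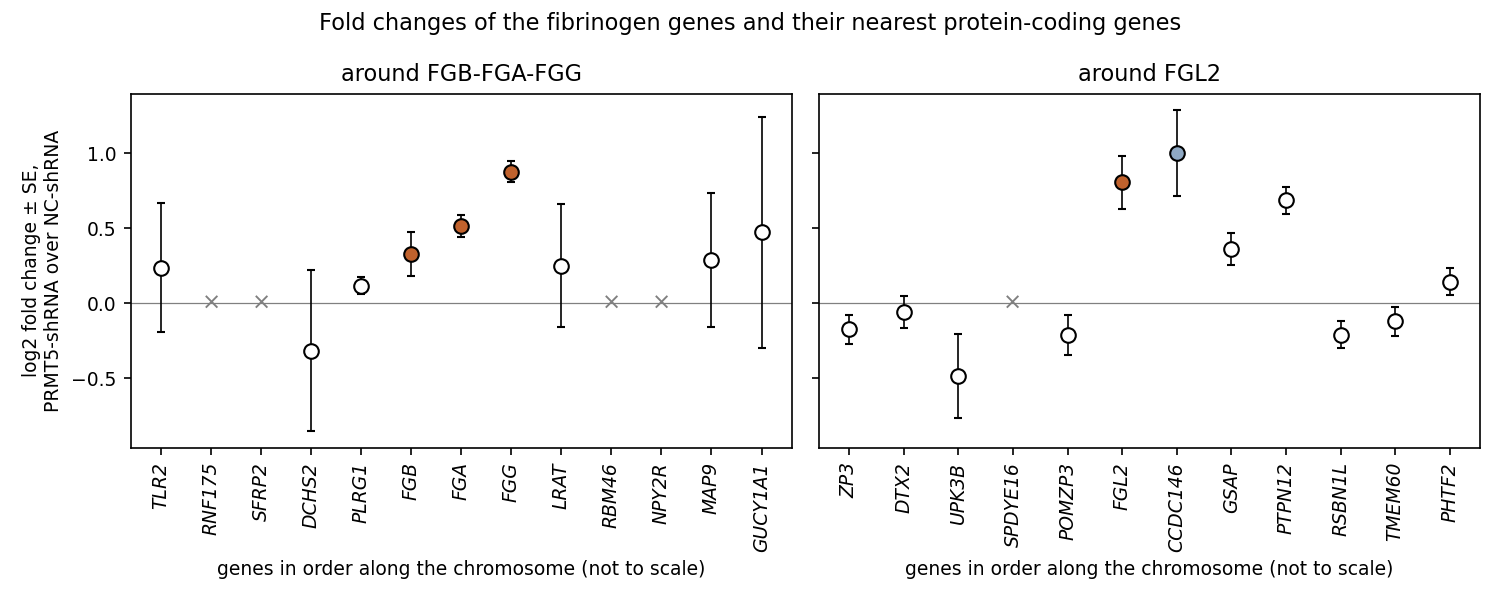
Log2 fold change ± standard error (PRMT5-shRNA over NC-shRNA, n = 3 each) of the fibrinogen genes (orange), CCDC146 (blue) and their nearest protein-coding genes (white), in order along the chromosome and not to scale. Crosses mark genes with too few counts. FGG stands highest around the cluster at 0.88, while PLRG1 beside FGB has 0.12.

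Genes of the IL-6 family were read for 1 known route to the chain genes. This list and the gene lists below were chosen with earlier results of these data known. Their counts beside the shares of all tested genes are therefore a description. LIFR, the receptor chain for LIF, had FPKM values of 4.77, 5.01 and 6.25 in NC-shRNA and 12.6, 10.8 and 13.6 in PRMT5-shRNA libraries. It rose by 1.15 in log2 (edgeR's quasi-likelihood test, standard error 0.117, adjusted p = 0.0404). The call was lost without any 1 library other than NC-shRNA replicate 3, with values from 1.08 to 1.23 and adjusted p from 0.0516 to 0.129, where fewer libraries were fitted. Of 18 tested IL-6 family genes, 1 was higher at an adjusted p under 0.05 and 0 were lower, against 0.0493% and 0.0197% of all tested genes. At the looser thresholds 2 were higher, against 2.53%, LIFR and the cytokine gene IL11 (log2 fold change 0.996, on 30 to 94 counts). Higher in every PRMT5-shRNA library were 4 and lower in every one 0, against 11.03% and 10.67% of all tested genes. OSMR, the receptor chain for oncostatin M (31.0 ± 2.49 against 39.3 ± 1.57 FPKM, SD, n = 3 each), and the feedback inhibitor gene SOCS3 (24.0 ± 1.88 against 30.6 ± 0.39) were the most abundant. Both were higher in every PRMT5-shRNA library, with an adjusted p of 0.196 each. The median log2 fold change of the list was 0.18, where that of all tested genes was 0.01.

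The transcription factor genes known to act on the fibrinogen promoters were read for the same libraries. Of 9 tested, 0 passed in edgeR's quasi-likelihood test (adjusted p below 0.05), and their median log2 fold change was -0.03. Over 16 other settings it ran from -0.08 (without NC-shRNA replicate 1) to 0.08 (limma on FPKM), so its sign was not fixed. At the looser thresholds 1 was lower, ONECUT1 (log2 fold change -1.87, on 5 to 47 counts), against 1.29% of all tested genes. Without NC-shRNA replicate 3, which held the 47 counts, its log2 fold change was -1.27. ONECUT1 met the level of the count filter in every NC-shRNA library but, with PRMT5-shRNA, only in replicate 3. Nothing is therefore read from its call or its sign. Higher in every PRMT5-shRNA library was 1 (CEBPA, log2 fold change 0.45, adjusted p = 0.326) and lower in every one were 2 (CEBPB and ONECUT1), against 11.03% and 10.67%. CEBPB had 40.9 ± 0.735 and 38.4 ± 0.743 FPKM, and USF1 14.1 ± 1.36 and 13.7 ± 0.907 (SD, n = 3 each).

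Other acute-phase genes lay on both sides of 0. Of 10 tested, 5 had a log2 fold change above 0 and 5 below, and 0 passed the same test at an adjusted p below 0.05. At the looser thresholds 2 were higher, against 2.53% of all tested genes. These were SERPINA1, the gene of α1-antitrypsin (0.31 ± 0.0265 against 0.607 ± 0.144 FPKM, log2 fold change 0.90), and ITIH4 (1.76, on 9 to 114 counts). For ITIH4, NC-shRNA replicate 1 (9 counts) was under the level of the count filter, which every PRMT5-shRNA library met. Nothing is therefore read from the call of ITIH4. DESeq2 called SERPINA1 (adjusted p = 0.0425, and over all alternatives up to 0.443). C3, the most abundant, had 91.5 ± 2.84 and 88.6 ± 1.11 FPKM, and SAA1 11.98 ± 0.795 and 9.91 ± 0.112 (SD, n = 3 each). CRP, HP, ORM1, ORM2 and HAMP had too few counts to be tested. The median was 0.03. It was below 0 without NC-shRNA replicate 1 (-0.000292) or PRMT5-shRNA replicate 2 (-0.0041) and with limma on filtered FPKM, and ran from -0.04 to 0.12 over 16 other settings, highest without NC-shRNA replicate 2.

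Of the coagulation factors and inhibitors, 15 of 24 were tested, 1 was higher at an adjusted p under 0.05 and 0 were lower, against 0.0493% and 0.0197%. That gene was VWF, the platelet-binding carrier of factor VIII, without a count in NC-shRNA cells and with 128, 105 and 122 in the PRMT5-shRNA libraries. VWF passed the count filter only through the PRMT5-shRNA libraries, so nothing is read from its call beside the share of all tested genes. Against a floor of 3 counts in 1 library it was at least 41.2-fold higher (adjusted p = 0.0341 in edgeR's quasi-likelihood test). Low counts gathered at 4 in these libraries, so this floor may be too low and such bounds too high. With counts divided by 4 the adjusted p was 0.0689. The call was lost without any 1 library other than NC-shRNA replicate 3, with adjusted p from 0.0662 to 0.124. F2, the gene of prothrombin, and F9, F11 and F13B had 0 counts in every library. PROCR (34.5 ± 1.63 and 36.2 ± 1.14 FPKM) and VKORC1 (14.8 ± 6.41 and 19.1 ± 0.872) were the most abundant (SD, n = 3 each). VKORC1 had 7.41 in NC-shRNA replicate 1 and 18.4 to 20.1 in the other 5 libraries. The list's median was 0.01, and it was -0.03 without NC-shRNA replicate 2 and -0.02 without NC-shRNA replicate 3 or PRMT5-shRNA replicate 2. Over 16 other settings it reached 0.07.

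Of 10 tested fibrinolysis genes, 0 passed the same test at an adjusted p below 0.05, and their median was 0.10 (0.04 to 0.22 over 16 other settings, lowest without NC-shRNA replicate 2). At the looser thresholds PLAU, the urokinase gene, was higher (1 of 10, against 2.53% of all tested genes), with FPKM values of 0.57, 0.92 and 0.89 against 1.32, 1.57 and 1.64. Its log2 fold change was 0.87 (adjusted p = 0.218). DESeq2 called PLAU (adjusted p = 0.0246, and over all alternatives up to 0.467). The plasmin-binding pair S100A10 (238 ± 8.86 and 229 ± 8.40 FPKM) and ANXA2 (139 ± 12.4 and 134.5 ± 1.70) was most abundant (SD, n = 3 each), and the groups overlapped for both.

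Relatives with a fibrinogen domain were mostly silent or low. Of 19, 9 were tested, and 0 passed the same test at an adjusted p below 0.05. Above 1 FPKM were only ANGPTL4 (5.56 ± 0.186 and 5.86 ± 0.188) and FIBCD1 (2.46 ± 0.328 and 2.84 ± 0.502; SD, n = 3 each). TNXB, a matrix tenascin, was the 1 gene higher at the looser thresholds, against 2.53% of all tested genes (0.217 ± 0.0231 against 0.39 ± 0.052 FPKM, log2 fold change 0.78, adjusted p = 0.179). DESeq2 called TNXB (adjusted p = 0.00301, and over all alternatives up to 0.412). The median was 0.15. It was 0.0099 without NC-shRNA replicate 1, 0.02 without PRMT5-shRNA replicate 2, -0.0066 without PRMT5-shRNA replicate 3 and 0.24 without NC-shRNA replicate 3.

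Among receptors of the 5 proteins, 9 of 13 were tested and 0 passed either threshold in the same test. The median was 0.20. The integrin genes ITGB1 (82.2 ± 4.21 and 98.5 ± 11.4 FPKM) and ITGA5 (18.5 ± 1.17 and 21.9 ± 0.641; SD, n = 3 each) were the most abundant and higher in every PRMT5-shRNA library. Of the 9, 4 were higher in every PRMT5-shRNA library and 1 was lower, ITGB2 (log2 fold change -0.53). The shares of all tested genes were 11.03% and 10.67%. The Fc receptor genes FCGR2B and FCGR3A, whose products bind FGL2, had 0 counts in every library. Of the other LAG3 ligands, 2 of 8 were tested (LGALS3 and HLA-DPA1) and 0 passed. HLA-DPA1, on 16 to 38 counts, was lower in every PRMT5-shRNA library, against 10.67% of all tested genes. Its log2 fold change was -0.77 (adjusted p = 0.458 in edgeR's quasi-likelihood test). LGALS3 had 117 ± 8.64 and 116 ± 3.16 FPKM (SD, n = 3 each), and HLA-DRB1, next in level, had under 1 FPKM and was not tested.

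Endoplasmic reticulum genes that fold secreted chains were read last among the lists, and this list too was chosen with earlier results known. Of 8 tested, 8 had a log2 fold change below 0 and 6 were lower in every PRMT5-shRNA library, against 10.67% of all tested genes. On FPKM, PDIA6 overlapped as well as CANX and P4HB, so 5 were lower in every one. At the looser thresholds 0 passed, and 0 passed in edgeR's quasi-likelihood test (adjusted p below 0.05). HSPA5 had FPKM values of 473, 425 and 375 in NC-shRNA and 314, 311 and 299.6 in PRMT5-shRNA libraries, a log2 fold change of -0.52 (adjusted p = 0.168). CALR had 405, 369 and 304 against 269, 294 and 278.5 (log2 fold change -0.42, adjusted p = 0.259). The median was -0.18, and stayed between -0.23 and -0.12 over 16 other settings.

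**Figure D4:**
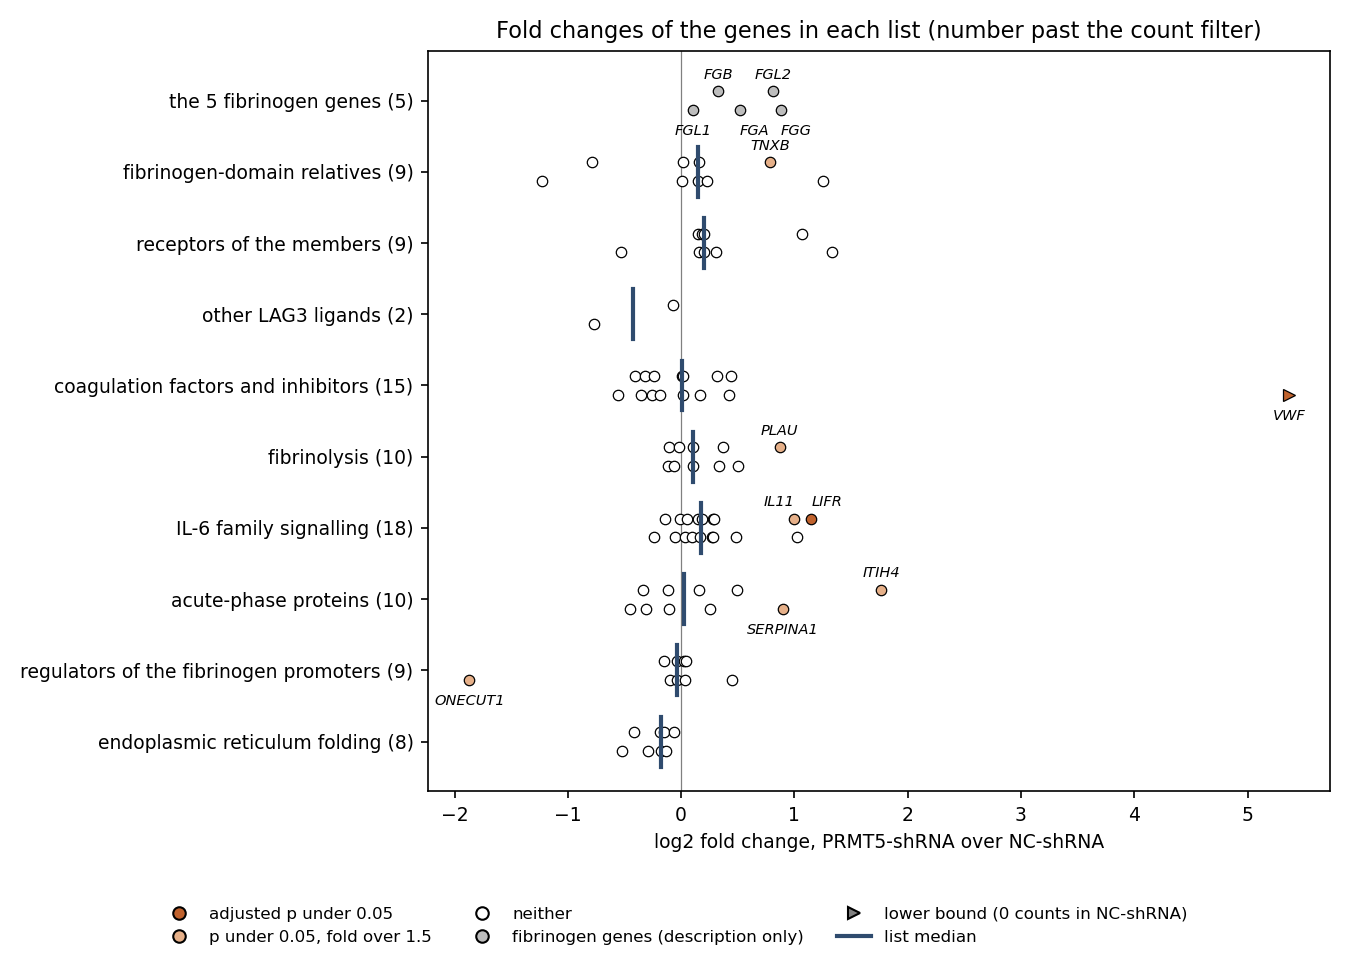
Log2 fold change (PRMT5-shRNA over NC-shRNA) of each gene past the count filter, by list, with list medians as bars and colours for the 2 thresholds. The fibrinogen genes are in grey, as a description. LIFR at 1.15 and VWF, drawn at its lower bound of 5.36, are the list genes past an adjusted p under 0.05. VWF passed the count filter only through the PRMT5-shRNA libraries, so nothing is read from its call.

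Markers of other cells were measured for the same libraries. Of 13 hepatocyte markers, ALB, APOA1, APOH, TTR and ARG1 had 0 counts in every library, and the summed FPKM of the list ran from 0.16 to 0.38 with NC-shRNA and from 0.34 to 0.63 with PRMT5-shRNA. Its most abundant gene was CYP2E1 (0.137 ± 0.0208 and 0.25 ± 0.0818 FPKM, log2 fold change 0.82, adjusted p = 0.318). The platelet markers PF4, PPBP and GP9 and the leukocyte markers CD3D, CD3E, CD2 and MS4A1 had 0 counts in every library. Summed levels were 1.34 to 1.49 and 1.62 to 2.58 FPKM for platelet markers, led by GP1BA, and 6.68 to 8.64 and 6.60 to 7.64 for leukocyte markers, led by CD68. Among the platelet markers, GP6 had 19, 0 and 0 counts in NC-shRNA and 49, 41 and 38 in PRMT5-shRNA. Its log2 fold change was 2.89 (adjusted p = 0.406 in edgeR's quasi-likelihood test). GP6 passed the count filter only through the PRMT5-shRNA libraries, so nothing is read from its direction. GP1BB had 41 counts in PRMT5-shRNA replicate 1 and 0 in every other library. The epithelial keratins KRT18 (151 ± 12.5 and 135 ± 13.8 FPKM) and KRT8 (110.0 ± 2.46 and 98.0 ± 5.70) were abundant, while the lung markers NKX2-1, SFTPB, SFTPC and NAPSA were each under 0.1 FPKM on average (SD, n = 3 each).

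Endothelial markers were read in the same way. Of 9, 7 were tested. Of these, 5 were higher in every PRMT5-shRNA library, against 11.03% of all tested genes, and 1 (ESAM) lower, against 10.67%. VWF, KDR and CLEC14A passed the count filter only through the PRMT5-shRNA libraries, which fixed their direction. PECAM1 met the filter's level in every PRMT5-shRNA library but not in NC-shRNA replicates 2 and 3 (5 and 8 counts). Its direction was thus favoured by the filter. Nothing is therefore read from this count or the median. The median log2 fold change was 2.999, or 2.77 with genes absent from NC-shRNA at their lower bounds. The first is the value of PECAM1. With 1 library left out, PECAM1 ran from 2.58 (NC-shRNA replicate 2) to 4.1 (NC-shRNA replicate 1). Beside VWF, KDR had 0 counts in NC-shRNA and 12, 22 and 26 in PRMT5-shRNA, CLEC14A 0 against 27, 31 and 15, and PECAM1 30, 5 and 8 against 104, 100 and 109. Against the floor of 3 counts, which may be too low, KDR was at least 6.81-fold and CLEC14A at least 8.28-fold higher. Adjusted p values were 0.183 for KDR, 0.167 for CLEC14A and 0.188 for PECAM1 in edgeR's quasi-likelihood test. DESeq2 called PECAM1 (adjusted p = 0.00045, and over all alternatives up to 0.434). It used the same count filter, so nothing is read from this call. The summed FPKM of the list was 15.9, 15.8 and 14.7 in NC-shRNA and 14.7, 14.5 and 15.5 in PRMT5-shRNA libraries, most of it ESAM (14.0 ± 0.624 and 12.4 ± 0.255; SD, n = 3 each). TIE1 and EMCN had 0 counts in NC-shRNA and at most 11 in PRMT5-shRNA. Whether the source of these counts bears on the fibrinogen values was not tested.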

How the data were processed

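RNA of 3 NC-shRNA and 3 PRMT5-shRNA libraries of NCI-H460 cells was sequenced. Per the submitters' processing notes, reads were trimmed with cutadapt 1.9, aligned to GRCh38 with HISAT2 2.0.4 and quantified with StringTie 1.3.4d. The methods name GRCm38, a mouse assembly, but 58552 of the 58825 human gene identifiers have an entry in GENCODE release 29 (GRCh38). What the authors deposited is an estimated count for each gene, as whole numbers before any normalization. The authors also deposited FPKM values, which were used here for levels and shares. Strand and overlap settings of the counting are not given in the sources used here. In each library 1214 to 1319 genes had exactly 4 counts, against 283 to 308 with 5, so a count is not read as 1 fragment, and bounds from counts cover counting error only.

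Counts were scaled by TMM and filtered with filterByExpr, which left 20295 genes, and tested with edgeR 4.0.16 (R 4.3.3; quasi-likelihood test, Benjamini-Hochberg adjustment over all tested genes). The fit was tested on simulated data. Standard errors were derived from the F statistic. The looser thresholds are stated in the report. The methods call the libraries biological replicates. Chi-square per degree of freedom between libraries was 42.2 or more, so none was treated as a duplicate. Likeness was Pearson's correlation of log2 CPM with a prior count of 2. A single comparison of 3 with 3 libraries cannot go below p = 0.10 in an exact permutation test, so none was run.

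The members and lists were chosen with earlier results of these data known. Named genes were PRMT5, the 5 fibrinogen genes, of each list those past either threshold and the 2 with the highest mean FPKM, the 5 nearest protein-coding genes on each side of the cluster and of FGL2, overlapping genes, and the 5 most alike genes. Cell type markers were described as lists. Some items are not reported here. Other genes named for having 0 or few counts were chosen after their values were seen. ITGA2B, ITGAM, CDH5 and VWF are each in 2 lists. RefSeq promoters matched 4 of the 5 genes (FGB by the first of 2 entries), not FGL1. Alternatives were other normalizations and filters, DESeq2 1.42.0, limma 3.58.1 on log2 FPKM, a replicate block, counts divided by 4 and each library left out.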

Additional observations from a re-analysis of the deposited data

How the results depend on the processing

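All alternatives were written down together with the design. FGA stayed between 0.47 and 0.59 (log2 fold change), FGB between 0.19 and 0.48 and FGG between 0.84 and 0.94 over 16 alternatives each. FGL1 ran from -0.06 to 0.28 over the 14 that measured it. FGL2 ran from 0.31 to 0.91. Its lowest value, 0.31, came from limma on log2(FPKM + 1), with or without a filter, where a pseudocount of 1 exceeds its FPKM and compresses the fold.

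PRMT5 kept its call in 15 of 16 alternatives, between -1.66 and -1.49. Blocked by replicate number, it was -1.62 (adjusted p 0.144, range 3.18e-42 to 0.144). Same-numbered libraries did not deviate together (correlations 0.035, -0.010 and -0.015), so they share only a number. The block gave 0 higher and 0 lower genes in edgeR, with 2382 at an unadjusted p under 0.05.

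Against 10 higher and 4 lower genes, DESeq2 called 303 and 227. A cutoff of 0.1 called 21 and 12. Unfiltered limma on log2(FPKM + 1) called 1 and 4. Leaving out 1 library gave 4 to 16 higher and 3 to 10 lower. The cause was not tested. LIFR passed in 7 of 16 alternatives (adjusted p 2.73e-14 to 0.157) and VWF in 6 of 14 (4.5e-11 to 0.366). PRMT5, FGG, LIFR and VWF kept their sign throughout, which for VWF follows from its 0 counts in NC-shRNA. The other called genes were not followed here.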
